A study of Mus musculus with 12 samples.

Results

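The proteasome genes described here are the 46 mouse genes whose array symbol starts with Psma, Psmb, Psmc, Psmd, Psme, Psmf or Psmg followed by a digit, without the immunoproteasome genes Psmb8, Psmb9 and Psmb10. They were chosen by symbol alone, out of 15964 genes that had a probe set with a single symbol, and were read by 81 of 36701 probe sets. A gene is given by its probe set with the highest mean over the 4 populations, and its other probe sets serve as a check. The 46 genes comprise 7 subunits of the 20S alpha ring, 7 of the 20S beta ring, 6 ATPases and 11 other subunits of the 19S cap, 7 assembly chaperones, 4 activators or inhibitors of the 20S core and 2 core subunits restricted to testis or thymus. The other 2, Psmc3ip and Psme3ip1, carry the prefix because their proteins bind a subunit, and are not proteasome subunits themselves. Psme2 and Psme2b share 3 probe sets that carry both symbols, which the choice by a single symbol leaves out.

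MIN6 is a pancreatic β-cell line from an insulinoma of a mouse with an SV40 T antigen transgene, and all 4 populations stem from it. Pr-HP are parental cells at passages 35 to 40, and they lack glucose-stimulated insulin secretion (GSIS). Their comparison is with the responder cells, which are parental cells at passages 17 to 20 (Pr-LP), cells of the subclone MIN6 clone 4 at passages 17 to 20 (C4-LP) and clone 4 cells at passages 40 to 50 (C4-HP). Clone 4 is a single clone isolated from low-passage parental cells, and each population was hybridised once to each chip (A, B or C) of the murine U74 version 2 set, 12 arrays in all. The purpose of the series was to find genes whose expression goes with the maintenance of GSIS.

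The proteasome degrades proteins that carry ubiquitin chains. Its 20S core is a barrel of stacked rings in which the alpha subunits form the gated entrance and the beta subunits Psmb5, Psmb6 and Psmb7 cut the chain. The 19S cap recognises the ubiquitin chain, removes it and feeds the unfolded protein into the core with its ATPases. In mammalian cells the subunit genes are controlled together by the transcription factor Nfe2l1, which becomes active when proteasome capacity falls short. β cells make large amounts of proinsulin, and misfolded proinsulin is returned to the cytosol and degraded by this machine.

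The values are probe set intensities in arbitrary units on a linear scale. Array medians differed by little within a chip, with 213.7 to 215.5 units on chip A, 161.9 to 162.7 on chip B and 92.8 to 93.2 on chip C. Each gene was compared by limma on log2 values, as Pr-HP minus the mean of the 3 responder populations, with Benjamini-Hochberg adjustment over 23340 probe sets of the 3 chips. No population has a replicate array, so the error of this difference rests on the spread between the 3 responder populations. In limma that spread is drawn toward the one typical of all tested probe sets of the chip. A gene with nearly equal responder values therefore gets a larger error than its own. Pr-HP is assumed to vary like the responder populations. Anything particular to the single Pr-HP culture, or to its arrays, cannot be told apart from the loss of GSIS. The control probe sets at both ends of the Gapdh transcript, a check on RNA quality, gave a 3′ over 5′ ratio of 0.867 in Pr-HP, against 0.968 to 1.05 in the responder cells on chip A, and Pr-HP had the lowest ratio of the 4 populations on every chip. For the Actb control, Pr-HP had the lowest ratio on chip A, at 1.15, and on chip B, at 1.28. On chip C its Actb ratio was 1.34, above that of C4-LP at 1.30. The part of RNA quality in the differences below was not tested. Among the cell type markers, the β-cell list summed to 41865 units in Pr-HP, against 41933 to 47265 units in the responder cells over 11 measured genes. Of those 11, 4 had a positive and 7 a negative difference with a median of −0.23 on the log2 scale, and 0 were called. Pr-HP was the highest population in 3 and the lowest in 6. Over all genes tested, Pr-HP was highest in 29.6% and lowest in 27.8%. The alpha-cell gene Gcg read 10552 units in Pr-HP, against 502 in Pr-LP, 3175 in C4-LP and 2915 in C4-HP. Ttr of the same list was lowest in Pr-HP, with 248 units there, against 435 in Pr-LP, 3135 in C4-LP and 1362 in C4-HP. Neither gene was called. Irx2, also of that list, was too dim to enter the test, with 42.3 units in Pr-HP, against 47.5 to 81.9 in the responder cells. The duct list of 5 measured genes had 2 positive and 3 negative differences with a median of −0.15. Pr-HP was the highest population in 1 of them and the lowest in 2. Its called gene, Car2, read 1831 units in Pr-HP, against 139 in Pr-LP, 131 in C4-LP and 162 in C4-HP. With Car2 included, the list summed to 4215 units in Pr-HP, against 2908 to 3516 in the responder cells. The macrophage list of 7 genes summed to 2760 units in Pr-HP, against 1164 to 1224 in the responder cells. Its called gene, Cd68, read 1785 units in Pr-HP, against 177 to 210 in the responder cells. Cd14, the other tested gene, was flat, at 643 units in Pr-HP, against 634 to 692 in the responder cells. Adgre1, Csf1r and Itgam were too dim to enter the test, and Ptprc and Lyz2 stayed below the floor of the chip in all populations. The part of these cell type markers in the proteasome values was not tested.

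Most proteasome genes read somewhat higher in Pr-HP than in the responder cells, and none passed the test. Of the 45 genes that passed the filter on dim probe sets, 35 had a positive difference and 10 a negative one, with a median of 0.19 on the log2 scale, or 1.14-fold. Over all 12267 genes tested by the same rule, 50.1% had a positive difference and the median was 0.00040. Pr-HP had the highest value of the 4 populations in 25 of the 45 genes, where 29.6% of all genes did, and the lowest in 4, where 27.8% of all genes did. At an adjusted p of 0.05 the test called 19 probe sets, or 0.0814% of those tested, and 0 of the 68 proteasome probe sets among them. At an unadjusted p under 0.05, 6 proteasome genes were higher in Pr-HP and 0 lower, where 5.7% of all genes were higher and 4.24% lower. The differences were thus small and mostly in a common direction, and no single one passed the threshold after adjustment. Probe sets of 1 mRNA pool are not independent, so these counts describe the 4 cultures and carry no p-value.

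**Figure D1:**
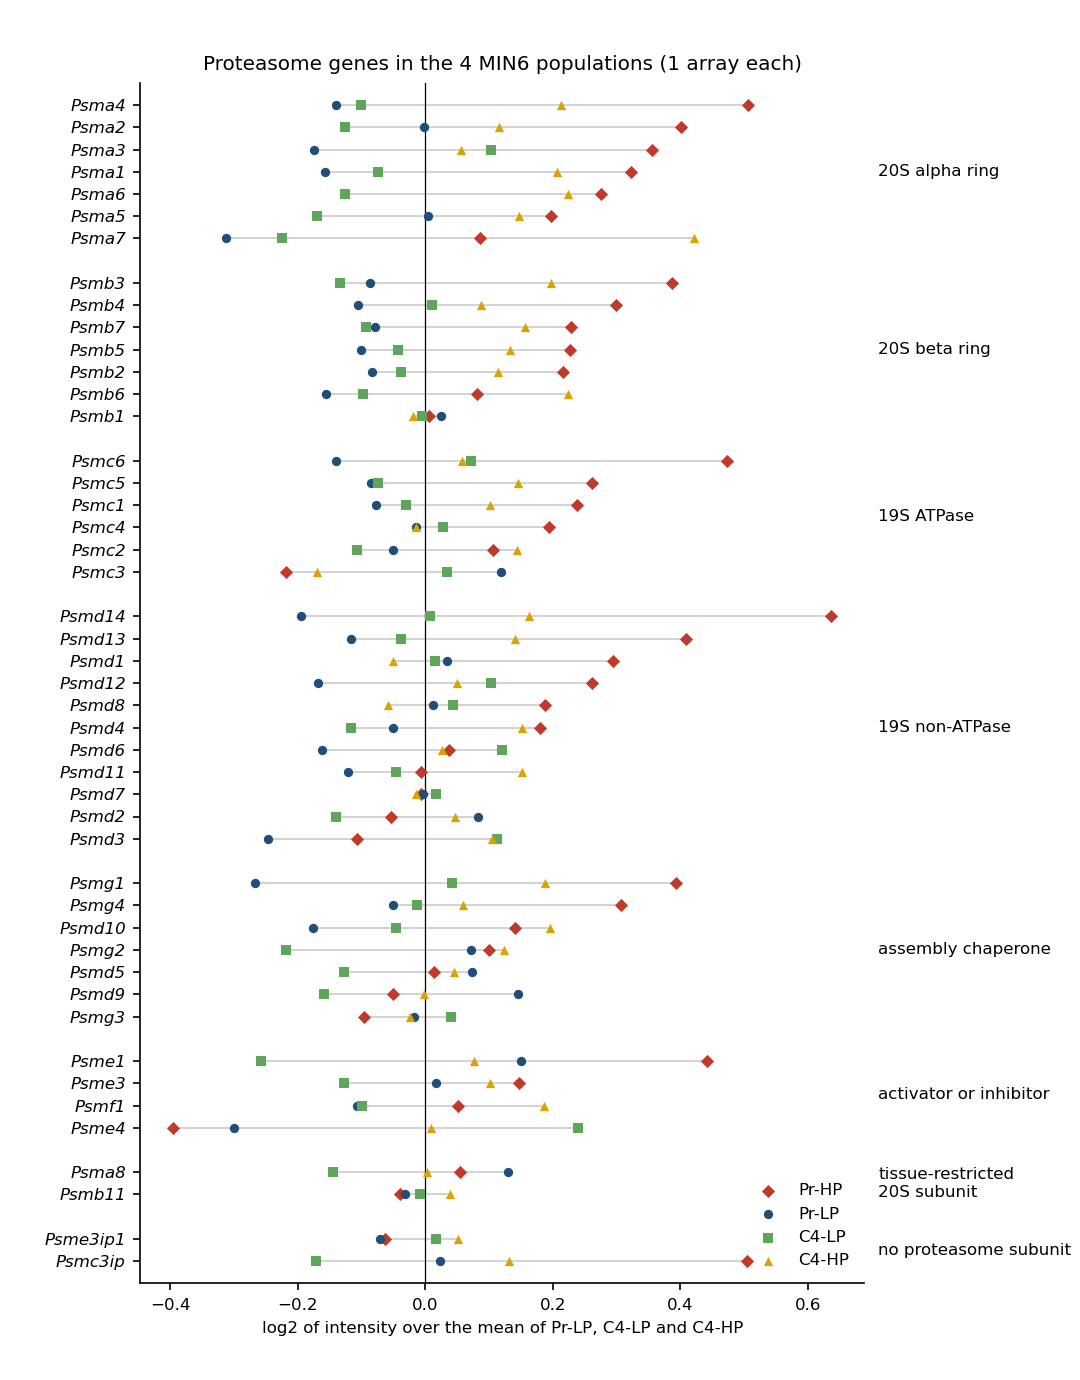
Intensity of each of the 46 proteasome genes in the 4 populations, as log2 over the mean of the 3 responder populations (horizontal axis), with genes grouped by role and ordered within a role by their difference; each point is 1 array. Pr-HP (red diamonds) is the rightmost point in 25 of the 45 tested genes, and Psme4 and Psmc3 are the clearest cases where it is leftmost.

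The gene with the largest difference was Psmd14, the deubiquitinase of the 19S lid that cuts the ubiquitin chain off the substrate. It read 819 units in Pr-HP, against 460 in Pr-LP, 530 in C4-LP and 590 in C4-HP. Pr-HP stood apart from the responder cells, which differed less among themselves. The difference was 0.64 ± 0.18 on the log2 scale (SE), or 1.56-fold, with an unadjusted p of 0.023 and an adjusted p of 0.421 in limma. Its 95% interval ran between 0.15 and 1.14 on the log2 scale. Psmc6, an ATPase of the cap, read 2541 units in Pr-HP, against 1661 in Pr-LP, 1924 in C4-LP and 1906 in C4-HP, a difference of 0.48 ± 0.14 with an adjusted p of 0.441. A further probe set of Psmc6 on chip B gave a larger difference. It read 567 units in Pr-HP, against 232 in Pr-LP, 268 in C4-LP and 289 in C4-HP, a difference of 1.11 ± 0.16 with an adjusted p of 0.204, which was the lowest of all proteasome probe sets. Both probe sets of this gene placed Pr-HP above all 3 responder populations, and neither passed the threshold.

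The promoters of these 2 genes are given because Psmd14 led the differences and Psmc6 was the leading gene to hold the core of the antioxidant response element, the DNA element bound by Nfe2l1 and Nfe2l2. The letters searched were TGACNNNGC on both strands, and capitals mark this core in Psmc6 and a CCAAT box, searched as CCAAT on both strands, in Psmd14. Both matches lie on the strand opposite to the gene and therefore read as their reverse complement. The sequences are the 250 bases before the RefSeq start of each gene in GRCm38.p6, Psmd14 at chr2:61711444-61711693 and Psmc6 at chr14:45329574-45329823, both on the plus strand.
Psmd14: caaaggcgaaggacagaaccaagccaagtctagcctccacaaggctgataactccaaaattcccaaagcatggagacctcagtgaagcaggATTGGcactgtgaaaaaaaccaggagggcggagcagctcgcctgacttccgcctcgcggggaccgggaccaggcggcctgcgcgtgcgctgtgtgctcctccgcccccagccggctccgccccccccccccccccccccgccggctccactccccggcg
Psmc6: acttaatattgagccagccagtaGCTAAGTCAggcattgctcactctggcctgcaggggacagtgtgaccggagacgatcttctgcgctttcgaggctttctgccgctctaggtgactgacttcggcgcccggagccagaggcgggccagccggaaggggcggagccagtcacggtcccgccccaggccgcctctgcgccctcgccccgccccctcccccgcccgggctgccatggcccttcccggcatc

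The alpha ring of the 20S core was the group that lay highest in Pr-HP. All 7 of its genes had a positive difference, with a median of 0.33. In 6 of them Pr-HP was above every responder population, where it was in 29.6% of all genes. Psma4 read 1812 units in Pr-HP, against 1158 in Pr-LP, 1190 in C4-LP and 1479 in C4-HP, a difference of 0.51 ± 0.19 with an adjusted p of 0.516 in limma. Psma2 read 2848 units in Pr-HP, against 2156 in Pr-LP, 1977 in C4-LP and 2339 in C4-HP, and its difference was 0.40 ± 0.14. In both genes the high-passage clone 4 cells came second. Psma3 read 2739 units in Pr-HP, against 1896 in Pr-LP, 2299 in C4-LP and 2226 in C4-HP. The dimmer probe sets of Psma3, on chip C, had differences of −0.12 and 0.021, so that its direction depended on the probe set. Psma1 read 374 units in Pr-HP, against 268 in Pr-LP, 284 in C4-LP and 345 in C4-HP. Psma6 read 2153 units in Pr-HP, against 1627 in Pr-LP, 1630 in C4-LP and 2077 in C4-HP. For Psma1 and Psma6 the 2 high-passage populations lay close together and above both low-passage populations. Psma5 likewise read higher in both high-passage populations, with 2226 units in Pr-HP, against 1949 in Pr-LP, 1727 in C4-LP and 2150 in C4-HP. The exception was Psma7, for which C4-HP was highest, with 1223 units in Pr-HP, against 929 in Pr-LP, 986 in C4-LP and 1543 in C4-HP. Its difference of 0.12 ± 0.34 had the widest error of the proteasome genes, and turned to −0.012 when Pr-LP was left out.

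The beta ring lay less far above the responder cells. Its 7 genes all had a positive difference, with a median of 0.23, and Pr-HP was highest in 5, against 29.6% of all genes. Of the catalytic subunits, Psmb5, which carries the chymotrypsin-like activity, read 2298 units in Pr-HP, against 1830 in Pr-LP, 1907 in C4-LP and 2152 in C4-HP. Psmb6, with the caspase-like activity, read 2017 units in Pr-HP, against 1712 in Pr-LP, 1781 in C4-LP and 2226 in C4-HP. Psmb7, with the trypsin-like activity, read 1361 units in Pr-HP, against 1100 in Pr-LP, 1089 in C4-LP and 1294 in C4-HP. The differences of the 3 were 0.23 ± 0.14 for Psmb5, 0.091 ± 0.20 for Psmb6 and 0.23 ± 0.15 for Psmb7, with adjusted p-values of 0.669, 0.918 and 0.697 in limma. In each of them both high-passage populations read above both low-passage ones. Psmb3, a structural subunit, had the largest difference of the ring at 0.39 ± 0.18, with 2654 units in Pr-HP, against 1910 in Pr-LP, 1851 in C4-LP and 2327 in C4-HP. Psmb4 and Psmb2 had differences of 0.30 ± 0.13 and 0.22 ± 0.13. Psmb1 was flat on its brightest probe set, with 1568 units in Pr-HP, against 1588 in Pr-LP, 1555 in C4-LP and 1540 in C4-HP. A further probe set of Psmb1 on chip A read 1446.5 units in Pr-HP, against 1198 in Pr-LP, 1350 in C4-LP and 1286 in C4-HP. Its difference was 0.18 ± 0.12, with Pr-HP above every responder population.

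The immunoproteasome subunits replace the catalytic subunits after interferon signals. Psmb10 read 475 units in Pr-HP, against 453 in Pr-LP, 485 in C4-LP and 487 in C4-HP, and Psmb9 read 105 units in Pr-HP, against 157 in Pr-LP, 99.0 in C4-LP and 108 in C4-HP. The brightest probe set of Psmb8 did not pass the filter, and its other one, which was tested, read 107.8 units in Pr-HP, against 94.7 in Pr-LP, 106.7 in C4-LP and 105.7 in C4-HP. None of these 3 subunits was called. Psma8, a testis subunit, read 113 units in Pr-HP, against 119 in Pr-LP, 98.7 in C4-LP and 109 in C4-HP, and Psmb11, a subunit of the thymus, read 218 in Pr-HP, against 219.6 to 230.5 in the responder cells.

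The 6 ATPases of the cap had a median difference of 0.22, and Pr-HP was highest in 4 of them, against 29.6% of all genes. After Psmc6 the largest differences were those of Psmc5, at 0.27 ± 0.15, and Psmc1, at 0.24 ± 0.13. Psmc5 read 1137 units in Pr-HP, against 894 in Pr-LP, 901 in C4-LP and 1049 in C4-HP. Psmc4 had a difference of 0.19 ± 0.083 and Psmc2 one of 0.11 ± 0.15. Psmc3 went the other way on its highest probe set, with 533 units in Pr-HP, against 674 in Pr-LP, 636 in C4-LP and 552 in C4-HP, a difference of −0.21 ± 0.14 with an adjusted p of 0.695 in limma. That probe set is on chip C, and 3 probe sets of Psmc3 on chip A had positive differences. The brightest of those read 655 units in Pr-HP, against 450 in Pr-LP, 446 in C4-LP and 568 in C4-HP, a difference of 0.43 ± 0.19. The direction of Psmc3 therefore depended on the probe set.

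The 11 other subunits of the cap were split. Their median difference was 0.18, with 7 positive and 4 negative, and Pr-HP was highest in 6, against 29.6% of all genes. Psmd13, a subunit of the lid, read 1199 units in Pr-HP, against 834 in Pr-LP, 880 in C4-LP and 996 in C4-HP, a difference of 0.41 ± 0.15 with an adjusted p of 0.508 in limma. Psmd1, the large scaffold protein of the base, read 1572 units in Pr-HP, against 1312 in Pr-LP, 1294 in C4-LP and 1237 in C4-HP, a difference of 0.30 ± 0.11. For Psmd1, unlike Psmd13 and Psmd14, the high-passage clone 4 cells were lowest. Psmd12 and Psmd8 followed at 0.27 ± 0.15 and 0.19 ± 0.11, and the ubiquitin receptor Psmd4 at 0.18 ± 0.15. Psmd2, the other large scaffold of the base, read 233 units in Pr-HP, against 256 in Pr-LP, 220 in C4-LP and 250 in C4-HP, so that Pr-HP lay within the responder range. Psmd3, a lid subunit, read 1649 units in Pr-HP, against 1498 in Pr-LP, 1920 in C4-LP and 1911 in C4-HP. In Psmd3 both parental populations read below both clone 4 populations. Psmd7, which pairs with Psmd14 in the lid, read 1414 units in Pr-HP, against 1416 in Pr-LP, 1437 in C4-LP and 1407 in C4-HP, so that the 4 populations were nearly equal. The large difference of Psmd14 thus stood beside a flat value of its partner.

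**Figure D2:**
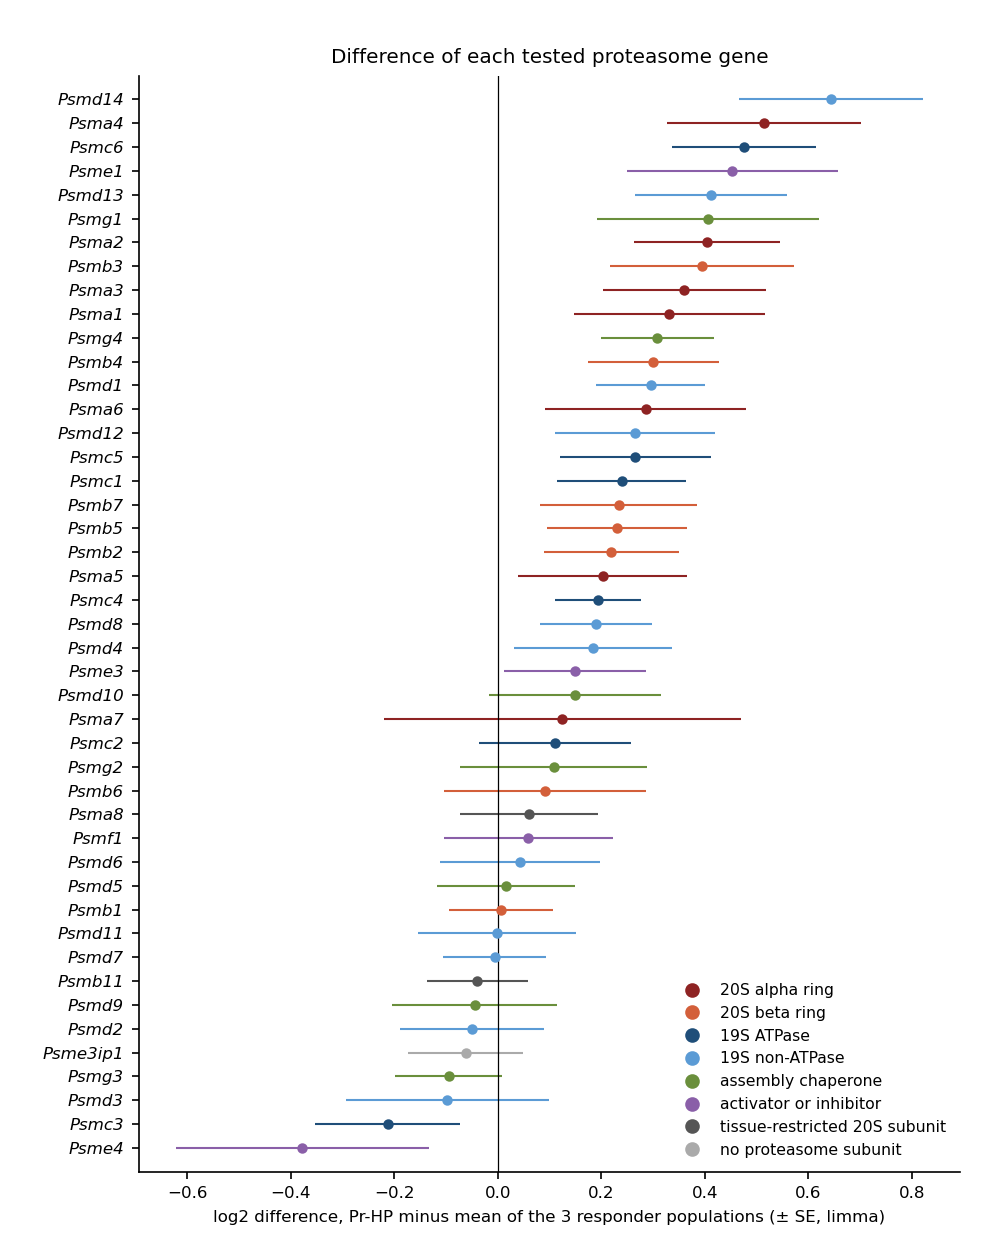
Log2 difference of Pr-HP minus the mean of the 3 responder populations for each of the 45 tested proteasome genes, ordered by size; points are the limma estimates, bars 1 SE, and colours the role. Psmd14 is at the top with 0.64 and Psme4 at the bottom with −0.38, and all 14 genes of the alpha and beta rings lie to the right of 0.

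The chaperones that assemble the proteasome had a median difference of 0.11. Pr-HP was highest in 2 of 7, which is close to the share of 29.6% over all genes. Psmg1, which helps to build the alpha ring, read 622 units in Pr-HP, against 394 in Pr-LP, 488 in C4-LP and 539 in C4-HP, a difference of 0.41 ± 0.22. Psmg2, its partner, read 364 units in Pr-HP, against 356 in Pr-LP, 292 in C4-LP and 370 in C4-HP. For Psmg2 the value of Pr-HP lay inside the responder range, while for Psmg1 it lay above. Psmg4 read 1001 units in Pr-HP, against 782 in Pr-LP, 802 in C4-LP and 843 in C4-HP, a difference of 0.31 ± 0.11. Its partner Psmg3 read 835 units in Pr-HP, against 881 in Pr-LP, 918 in C4-LP and 877 in C4-HP, a difference of −0.095 ± 0.10. Of the chaperones of the ATPase ring, Psmd10 had a difference of 0.15 ± 0.17, Psmd5 of 0.016 ± 0.13 and Psmd9 of −0.045 ± 0.16. A dimmer probe set of Psmd5 on chip B had a difference of −0.29 ± 0.13.

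The activators of the 20S core differed from each other in direction. Psme1, a subunit of the PA28 ring that opens the core without ubiquitin, read 728 units in Pr-HP, against 595 in Pr-LP, 448 in C4-LP and 565 in C4-HP, a difference of 0.45 ± 0.21. Psme4, the PA200 activator, read 514 units in Pr-HP, against 549 in Pr-LP, 799 in C4-LP and 681 in C4-HP, a difference of −0.38 ± 0.24 with an adjusted p of 0.695 in limma. This was the most negative value of the proteasome genes. On these probe sets both genes separated the cell lineages. Psme1 read lower in both clone 4 populations than in both parental ones, and Psme4 read higher in them. A dimmer probe set of Psme4 on chip C did not separate them. It read 212 units in Pr-HP, against 219 in Pr-LP, 217 in C4-LP and 193 in C4-HP, a difference of 0.017 ± 0.11. Psme3, the nuclear PA28 gamma, had a difference of 0.15 ± 0.14, and the inhibitor Psmf1 one of 0.059 ± 0.16. The dimmer tested probe sets of Psmf1 had differences of −0.42, −0.18 and −0.032, so that its direction depended on the probe set. Of the genes that are not subunits, Psme3ip1 read 668 units in Pr-HP, against 665 in Pr-LP, 706 in C4-LP and 723 in C4-HP, and Psmc3ip, a meiotic recombination factor, read 151 in Pr-HP, against 108 in Pr-LP, 94.5 in C4-LP and 117 in C4-HP, too dim to enter the test.

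Most proteasome genes read higher at high than at low passage in both lineages. In the parental cells, 35 of 45 genes read higher in Pr-HP than in Pr-LP, where 50.3% of all genes did, and the median ratio was 1.18. In clone 4 cells, which keep GSIS at high passage, 32 of 45 read higher in C4-HP than in C4-LP, where 51.3% of all genes did, and the median ratio was 1.12. These ratios come from different arrays, and 27 of the 45 genes, or 60%, were higher at high passage in both lineages, where 25.1% of all genes were. Another 5 were lower in both, where 23.4% of all genes were. Ratios of single arrays have no error and were not tested. In limma with clone as a term, the difference of high minus low passage was positive in 39 of 45 genes, where it was in 51% of all genes, with a median of 0.22 against 0.0034 over all genes. At an unadjusted p under 0.05, 5 proteasome genes were higher at high passage and 0 lower, where 1.58% of all genes were higher and 2.14% lower. This fit has 1 residual degree of freedom and called 0 of 23340 probe sets, 0% of them, with 839 at an unadjusted p under 0.05. It shares all its arrays with the comparison of Pr-HP and the responder cells, so that one cannot serve as a check on the other.

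The rings and the cap stood further apart in the clone 4 cells than in the parental cells. Of the 14 ring genes, 12 were higher in C4-HP than in C4-LP, with a median ratio of 1.20, whereas 8 of the 17 cap genes were, with a median ratio of 0.995. In the parental cells 13 of the 14 ring genes and 14 of the 17 cap genes were higher in Pr-HP than in Pr-LP, with median ratios of 1.32 and 1.15. Whether the roles differ was not tested, since subunits of a complex in the same 4 cultures are not replicates. The ratio of Pr-HP over Pr-LP exceeded 1.5 in 4 genes, Psmd14 at 1.78, Psmg1 at 1.58, Psma4 at 1.56 and Psmc6 at 1.53, where 5.62% of all genes did, and 0 lay below the inverse, where 4.94% of all genes did. The smallest ratios in the parental cells were those of Psmc3 at 0.791, Psmd9 at 0.873 and Psmd2 at 0.910. The ratio of C4-HP over C4-LP exceeded 1.5 in Psma7 alone, at 1.57, where 2.16% of all genes did, and 0 lay below the inverse, where 3.23% did. After Psma7 came Psma6 at 1.27 and Psmg2 at 1.27, and the smallest ratios were those of Psme4 at 0.852, Psmc3 at 0.868 and Psmd8 at 0.932. Psmd14 and Psmc6, which had 2 of the 4 largest ratios in the parental cells, had ratios of 1.11 and 0.991 in the clone 4 cells.

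**Figure D3:**
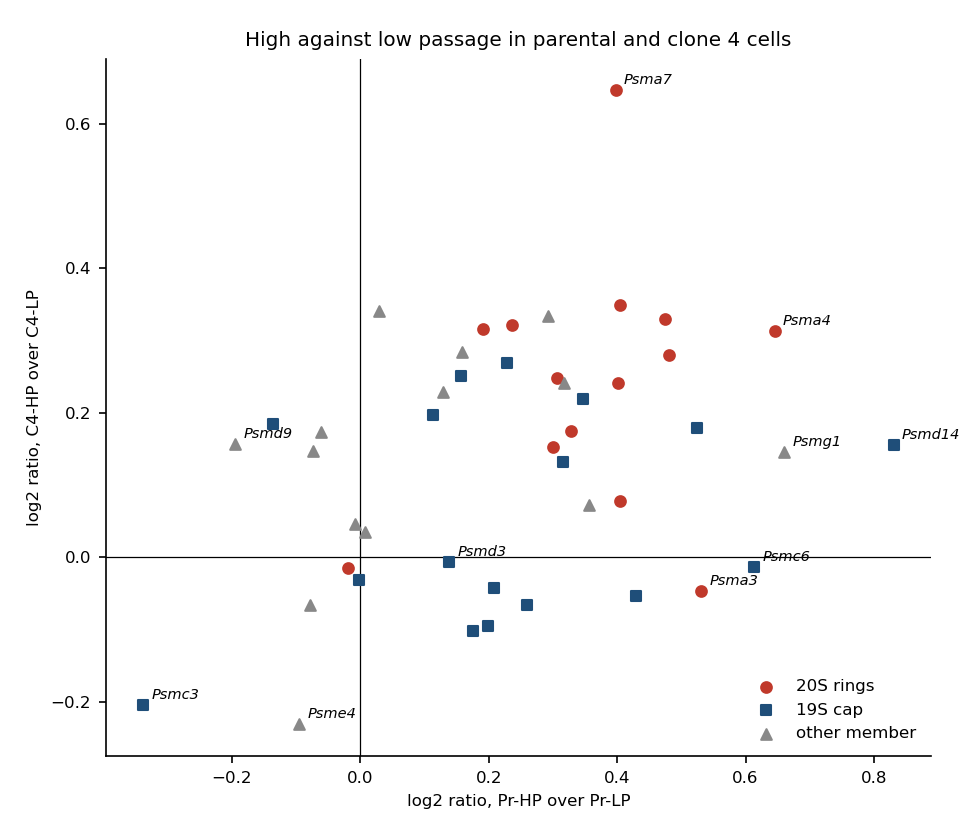
Log2 ratio of high to low passage in parental cells (horizontal axis, Pr-HP over Pr-LP) and in clone 4 cells (vertical axis, C4-HP over C4-LP) for the 45 tested proteasome genes, each point 1 gene and each ratio 1 array over 1 array. The upper right part holds 27 genes, among them 12 of the 14 ring subunits, while the cap subunits lie on both sides of the horizontal line.

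Between the lineages the proteasome genes differed little. The ratio of C4-LP over Pr-LP had a median of 1.03 and was above 1 in 29 of 45 genes, where 48.3% of all genes were. It ran between 0.754 in Psme1 and 1.45 in Psme4, with Psmd9 at 0.810 and Psmg2 at 0.818 among the lowest and Psmd3 at 1.28 and Psmg1 at 1.24 among the highest. The ratio of C4-HP over Pr-HP had a median of 0.965 and was above 1 in 16 of 45 genes, where 49.8% of all genes were. Its smallest values were those of Psmd14 at 0.720, Psmc6 at 0.750 and Psme1 at 0.776, and its largest those of Psme4 at 1.32, Psma7 at 1.26 and Psmd3 at 1.16. Past 1.5-fold lay 0 genes in either ratio, where 5.38% of all genes were higher and 4.01% lower in C4-LP over Pr-LP and 3.84% were higher and 4.59% lower in C4-HP over Pr-HP. In limma with passage as a term the difference of clone 4 minus parental cells had a median of −0.043, against −0.0063 over all genes. It was positive in 14 of 45 genes, where it was in 48.3% of all genes, and negative in 31. The fit called 0 of 23340 probe sets, 0% of them, and 1054 had an unadjusted p under 0.05. Those among the proteasome genes were 1 higher in clone 4, where 2.77% of all genes were, and 1 lower, where 2.31% were. They were Psme4, at 0.47 ± 0.12 with a p of 0.028, and Psme1, at −0.39 ± 0.11 with a p of 0.041, both with an adjusted p of 0.999.

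**Figure D4:**
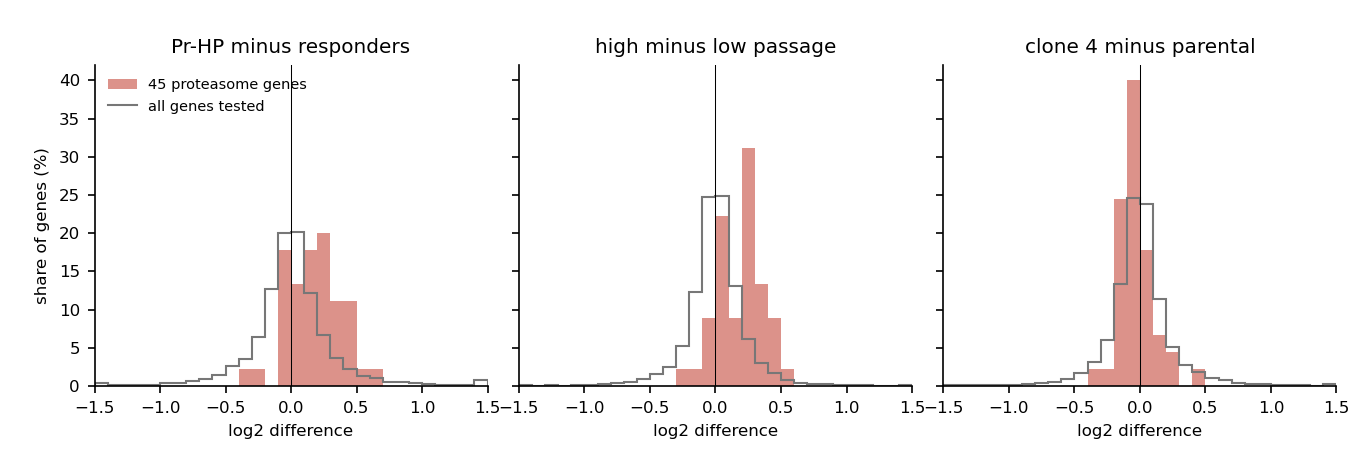
Distribution of log2 differences of the 45 proteasome genes (filled) and of all genes tested (line) in 3 comparisons, as the share of genes (vertical axis, %) in bins of 0.1; values beyond 1.5 are counted in the end bins. The proteasome genes are shifted to the right of all genes for Pr-HP minus responders (median 0.19) and for high minus low passage (median 0.22), and centred near 0 for clone 4 minus parental (median −0.043).

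Probe sets of the same gene did not always give the same direction. Of the 14 proteasome genes with more than 1 tested probe set, 10 had probe sets with differences of opposite sign. The widest gap was that of Psma4, where a dim probe set on chip C read 195 units in Pr-HP, against 254 in Pr-LP, 242 in C4-LP and 193 in C4-HP. Its difference was −0.23, against 0.51 for the bright probe set on chip A. Psmb5 had 2 bright probe sets with nearly the same difference, 0.23 on chip B and 0.24 on chip A, and a dim one at −0.033. No gap exceeded 1 on the log2 scale. Over all 68 tested proteasome probe sets the median difference was 0.11, with 46 positive, and Pr-HP was highest in 30, or 44.1%. Of all 23340 tested probe sets, 11578 were positive and Pr-HP was highest in 29.5%. Taking the mean over all probe sets of a gene gave a median of 0.14, with 34 of 45 genes positive. Of the 45 genes, 35 reached a mean of at least 500 units, and Pr-HP was highest in 21 of those, where 29.5% of all genes of that brightness had it highest.

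**Figure D5:**
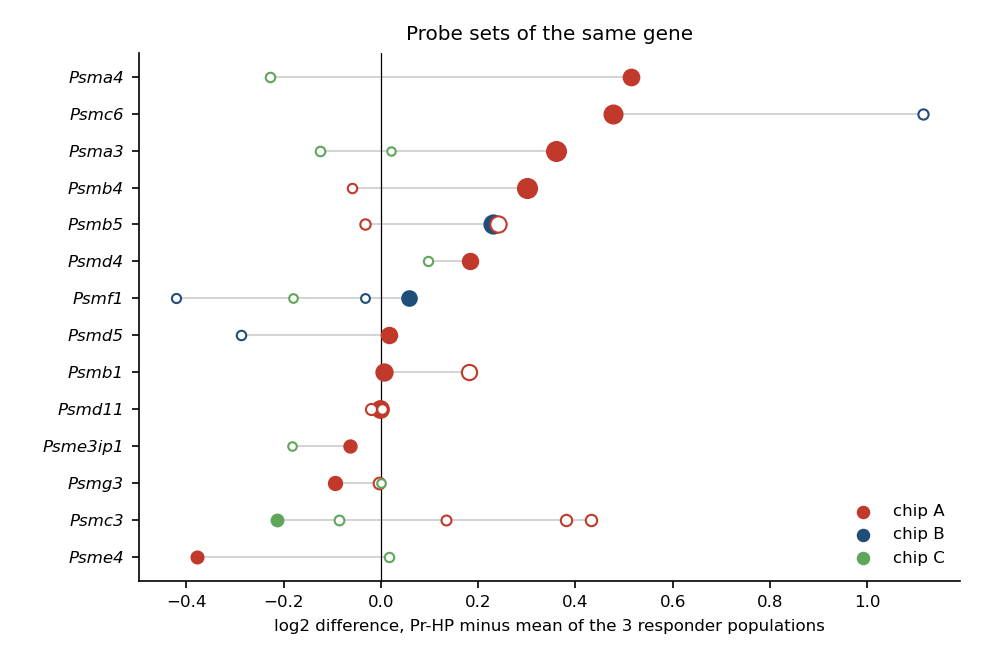
Log2 difference of Pr-HP minus the mean of the responder populations for each tested probe set of the 14 proteasome genes with several; filled points are the brightest probe set of a gene, the size of a point grows with its mean intensity, and colours mark the chip. Psma4 spans −0.23 to 0.51 and Psmc6 0.48 to 1.11, and in Psmc3 the probe sets of chip A lie to the right of 0 and those of chip C to the left.

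Genes around the proteasome were read beside it. Sem1, the smallest subunit of the cap, which lacks the Psm prefix, had the largest difference of the proteasome partners. It read 5415 units in Pr-HP, against 1893 in Pr-LP, 1938 in C4-LP and 2033 in C4-HP, a difference of 1.47 ± 0.11 with an adjusted p of 0.0741 in limma. This probe set carries the suffix for less specific probes, and the other probe set of Sem1 read 22.0 to 28.9 units in all populations, below the floor of its chip. The ubiquitin ligase Ubr4 read 11300 units in Pr-HP, against 2997 in Pr-LP, 11240 in C4-LP and 5560 in C4-HP, so that Pr-HP and C4-LP were nearly alike. Of the partner list 10 of 11 genes were measured, 0 were called, 8 had a positive difference and the median was 0.056. The proteasome maturation protein Pomp was flat, with 1299 units in Pr-HP, against 1205 in Pr-LP, 1289 in C4-LP and 1235 in C4-HP, and the deubiquitinase Uchl5 had a difference of 0.31 ± 0.25.

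The other lists held 0 called genes as well. Of the 10 measured shuttle factors, which carry ubiquitinated proteins to the cap or extract them from complexes, 7 were positive with a median of 0.14, and Ubqln2 led with 0.50 ± 0.11, ahead of Ufd1 with 0.22 ± 0.13 and Nsfl1c with 0.22 ± 0.11. Ubqln2 read 885 units in Pr-HP, against 612 in Pr-LP, 659 in C4-LP and 610 in C4-HP, and all 4 of its probe sets had positive differences. Of the list around Nfe2l1, 7 of 8 measured genes were tested and the median was 0.24. Nfe2l1 itself read 1439 units in Pr-HP, against 1193 in Pr-LP, 1321 in C4-LP and 1364 in C4-HP, a difference of 0.16 ± 0.13. In that list the small Maf proteins Maff and Mafg had differences of 0.68 ± 0.54 and 0.29 ± 0.13, and Sel1l, a part of the ubiquitin ligase complex of the endoplasmic reticulum, had one of −0.54 ± 0.32. Among 17 cytosolic chaperones 14 were positive, with a median of 0.19. The heat shock gene Hspa1b read 483 units in Pr-HP, against 233 in Pr-LP, 85.6 in C4-LP and 197 in C4-HP, a difference of 1.61 ± 0.64. Hspa1a, its near-identical neighbour whose transcripts the array may not separate, had a difference of 1.30 ± 0.45. Bag1, a nucleotide exchange factor that couples Hsp70 to the proteasome, read 912 units in Pr-HP, against 476 in Pr-LP, 565 in C4-LP and 522 in C4-HP, a difference of 0.81 ± 0.14 with an adjusted p of 0.275 in limma. Of the activating enzymes, Uba6, which activates ubiquitin, had a difference of 0.16 ± 0.11, and Uba3, part of the enzyme that activates the ubiquitin-like Nedd8, one of 0.30 ± 0.12.

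A promoter window was at hand for 36 of the subunit genes. The core TGACNNNGC stood in the 250 bases before the start of 5 of them, or 13.9%, which equals the share of 13.9% over the 9820 genes tested on the arrays with a window. The CCAAT box, searched as CCAAT on both strands, stood in 13, or 36.1%, where 40.3% of the tested genes had it, and TATAAA on the gene strand in 3, or 8.33%, where 5.38% did. Of the 23 subunit genes with Pr-HP above all responder populations, 3 held the core, or 13%, and of the other 13 tested ones 2 did, or 15.4%. These are matches of letters and no measure of binding. The 4 cores beside that of Psmc6 are shown because 2 of them belong to the catalytic subunits, each in the orientation of the motif with the core in capitals and up to 15 bases on either side. Psmd12 lies at chr11:107479278-107479304 with the motif on the minus strand, Psmb5 at chr14:54618019-54618057 on the minus strand, Psmb6 at chr11:70525333-70525356 on the plus strand and Psmd9 at chr5:123228144-123228182 on the plus strand, all in GRCm38.p6 with sequence from RefSeq.
Psmd12: tgaggggggcaaatgTGACACAGCaga
Psmb5: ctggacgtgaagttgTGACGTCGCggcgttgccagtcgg
Psmb6: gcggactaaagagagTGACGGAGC
Psmd9: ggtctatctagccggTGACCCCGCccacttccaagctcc
The log2 differences of these genes in Pr-HP were 0.27 for Psmd12, 0.23 for Psmb5, 0.091 for Psmb6 and −0.045 ± 0.16 for Psmd9. That of Psmc6, which also holds the core, was 0.48. Whether the core goes with the differences was not tested.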

How the data were processed

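Per the labels, RNA of the 4 populations was labelled with biotin and put on 1 array per population for each chip of the U74 version 2 set. The authors analysed the scans with the GeneChip software of Affymetrix and deposited 1 intensity per probe set on a linear scale. The sources used here do not name their normalization. The values were used without further scaling. Names came from the platform annotation: of 36701 probe sets that were not controls, 29131 had 1 symbol, 724 several and 6846 none. All 46 proteasome symbols were found in the RefSeq annotation.

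Values below a floor, the 20th percentile of a chip, were set to that floor, and probe sets with no array over the 40th percentile were left out. This left 23340 probe sets, 12267 genes by their brightest probe set, and 45 of the 46 proteasome genes. Differences were fitted on log2 values, chip by chip, with the lmFit and eBayes functions of limma 3.58.1 in R 4.3.3. P-values were adjusted by the Benjamini-Hochberg method over the 3 chips, with a threshold of 0.05. The fit was tested on simulated data. Pr-HP against the 3 responder populations left 2 residual degrees of freedom, and the fits of clone and passage 1. To these, eBayes added 1.93 to 2.47 prior degrees of freedom drawn from all tested probe sets of a chip. Single-array ratios were called past 1.5-fold and had no test. Genes were named as the 6 lowest and 6 highest differences, the 3 extreme ratios of each comparison and the catalytic subunits, with the other members added by role. With so few arrays, the precision of every value is limited by their number. Alternatives were other floors, scalings and filters and leaving out a population. The members, gene lists and alternatives were chosen with earlier results of these data known.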

Additional observations from a re-analysis of the deposited data

Results flagged for a closer look

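Psmd9, a chaperone of the ATPase ring, was the only tested proteasome gene whose single-array ratios of high over low passage went in opposite directions in the 2 lineages by more than 1.1-fold each. The only probe set of Psmd9 carries a suffix for less specific probes. The ratio of Pr-HP over Pr-LP was 0.873, with 314 units in Pr-HP and 359 in Pr-LP, and the ratio of C4-HP over C4-LP was 1.11, with 325 units in C4-HP and 291 in C4-LP. The difference between the lineages was not tested, since each ratio rests on 1 array over 1 array.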

How the results depend on the processing

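For Pr-HP against the responder populations, the count of called probe sets, 19 here, depended on the processing, whereas 0 proteasome probe sets were called in any alternative run. It was 32 with a floor at 1.0 unit, 0 with a floor at the 40th percentile (2511 at an unadjusted p under 0.05), 44 after trimmed-mean scaling, 108 without the filter on dim probe sets, 11 with an intensity trend in eBayes and 0 with clone as a term (2606 at an unadjusted p under 0.05). Leaving out 1 responder population gave between 0 (without Pr-LP or without C4-HP) and 3 (without C4-LP), with 1696 to 2446 at an unadjusted p under 0.05. The cause was not tested. The median difference of the proteasome genes stayed between 0.13 (without C4-LP) and 0.26 (without C4-HP) over these alternatives. It was 0.14 without probe sets whose suffix marks less specific probes, an alternative chosen after seeing the data. There 28 of 40 genes were positive and Pr-HP was highest in 20. Over all genes, by their brightest probe set of any suffix, Pr-HP was highest in 29.6%. The difference of Psma7 turned to −0.012 without Pr-LP and was 0.35 without C4-HP. With a limit of 2-fold in place of 1.5-fold, 0 proteasome genes remained past it in Pr-HP over Pr-LP and 0 in C4-HP over C4-LP. No paired analysis was possible because each population has a single array per chip and the labels carry no replicate numbers. With no replicate arrays, differences of the size seen in most proteasome genes could not be told apart from variation between cultures.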
